A study of Mus musculus with 12 samples.

Results

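The 6 female bone marrow macrophage libraries of the study, out of 12 libraries in all, compared 3 libraries from non-leukemic mice (replicates 1, 2 and 3) with 3 from leukemic mice at day 11 (replicates 1, 2 and 3). They were chosen by their labels (female, with or without leukemia) and not by a measured value, but with earlier results of these data known. Leukemic mice had received a transplant of bcCML cells, a mouse model of blast crisis leukemia, and were at a late stage of disease. The macrophages were sorted from bone marrow as CD45+, F4/80+, Ly6g- and Ly6c- cells, total RNA was amplified as full-length cDNA from 1 ng, and reads were counted per gene. Mouse strain, age, the treatment given to the non-leukemic mice and whether each library came from a separate animal are not given in the sources used here, so every p-value measures the spread between these libraries, which may be technical.

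Resident macrophages of the marrow stand at the centre of erythroblastic islands, where red cell precursors ring a macrophage that holds them, supplies iron and swallows the nuclei they shed. They also engulf old red cells and dying cells, break down heme and return the iron through the exporter ferroportin. Interferon gamma, made mainly by T cells and natural killer (NK) cells, acts on macrophages to raise antigen presentation, chemokines and families of defence GTPases.

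Library totals ran from 20031283 to 30014855 counts. Leukemic replicate 1 had the highest total and the fewest genes with a count, 17891 against 19521 to 20039 in the other libraries. Its median rank correlation with the others was 0.907, where theirs ran from 0.942 to 0.952, and its 100 most abundant genes took 27.3% of its counts against 18.2% to 21% elsewhere. On the first principal component, which held 49.1% of the variance, it lay at 134, the other leukemic libraries at 6.98 and 17.5, and the non-leukemic libraries between -55.4 and -50.05. Genes tested that had no count at all numbered 768 in leukemic replicate 1, 128 and 116 in leukemic replicates 2 and 3, and at most 239 in a non-leukemic library. Counts of members called are therefore also given without leukemic replicate 1.

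The gate genes gave a mixed picture. Ptprc, which encodes CD45, was at 305, 306 and 304 CPM (counts divided by the scaled library size) in non-leukemic replicates 1 to 3 and at 292, 355 and 642 CPM in leukemic replicates 1 to 3, and the groups overlapped. Adgre1, which encodes F4/80, was at 85.6, 102 and 93.0 CPM without leukemia and at 65.9, 26.7 and 57.1 CPM with it, each leukemic library below each non-leukemic one. That difference did not pass with all 6 libraries (log2 fold change -0.91, SE 0.32, adjusted p = 0.154) and passed without leukemic replicate 1 (-1.18, adjusted p = 0.0288). Transcripts of the proteins the gate was set against were not at 0. Ly6g, a neutrophil surface protein, lay between 11.0 and 58.7 CPM over the 6 libraries, and Ly6c2, a monocyte surface protein, between 167 and 462 CPM. Ly6c1 was near the floor, with 6, 2 and 10 counts without leukemia and 2, 9 and 11 counts with it. Xist, expected in female cells, was at 28.3 to 47.0 CPM in every library, while Y-linked genes had counts in some of them: Eif2s3y had 56, 18 and 129 counts in leukemic replicates 1, 2 and 3, 20 in non-leukemic replicate 2 and 0 in the other non-leukemic libraries. Kdm5d had 98 and 32 counts in leukemic replicates 1 and 3, Uty had 1 and 82, and both had 0 in leukemic replicate 2 and in each non-leukemic library. The sex of the transplanted leukemia cells is not given in the sources used here.

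In leukemia, red cell genes and genes of resident macrophages and of iron handling were lower. Genes of T cells, basophils, interferon gamma defence and protein folding in the endoplasmic reticulum were higher. Of 14452 genes with 10 or more counts in 3 or more of the 6 libraries, 933 passed an adjusted p of 0.05, which is 6.46% of the genes tested. The higher genes numbered 363 (2.51%) and the lower genes 570 (3.94%), and 115 and 213 of them differed by more than 4-fold. At an unadjusted p under 0.05 the count was 3079. Every leukemic library lay above every non-leukemic one for 2133 genes (14.8%) and below for 2228 (15.4%). CPM here are scaled by the library's normalization factor and not by transcript length, so levels are compared between libraries and not between genes.

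The number of calls depended on each library. With non-leukemic replicate 1, 2 or 3 left out in turn, 200, 267 and 246 genes passed. Leaving out leukemic replicate 1, 2 or 3 gave 2189, 688 and 536. Calls that passed in all of these 6 fits numbered 191, of which 178 were lower and 13 higher. The 13 higher genes were Trbv19, Iigp1, Gzmb, Cd5, Pdcd1, Gpr174, Cd6, Chst2, Lat, Gbp2, F2r, Creld2 and Nlrc5. For gene lists, the number of members that passed in each of the 6 fits is given from here on as omission counts. The order is non-leukemic replicates 1, 2 and 3 left out, then leukemic replicates 1, 2 and 3 left out. List counts stand beside 2.51% of all genes called higher and 3.94% lower with 6 libraries. Without leukemic replicate 1 these shares were 6.4% and 9.11%.

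Without leukemic replicate 1, 14112 genes were tested and 2189 passed (15.5%), 903 higher (6.4%) and 1286 lower (9.11%). Of the 933 genes called with 6 libraries, 898 were called again in the same direction and 0 in the opposite one. All 570 lower genes were among them, and 328 of the 363 higher genes. Of the other 35, 29 had too few counts to be tested in 5 libraries and 6 were tested and did not pass. A further 1291 genes passed only once that library was left out. On simulated counts, where no library was set apart from the others, the share of false calls was above the threshold in both fits. It was larger without leukemic replicate 1. Lacking an outlying library, the simulated counts cannot rank the calls made only in that fit. Such calls rest on fewer libraries.

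**Figure D1:**
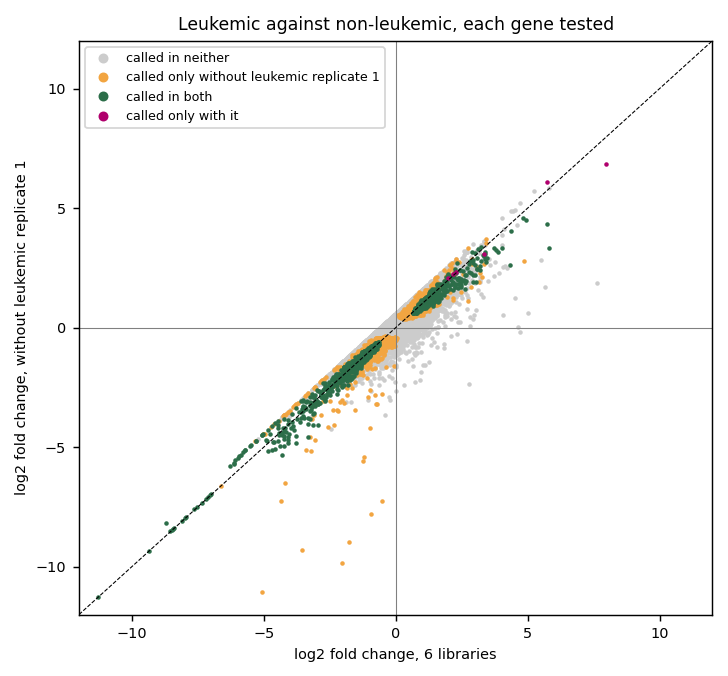
Log2 fold change of each gene tested in both fits, leukemic against non-leukemic, with all 6 libraries (horizontal axis) and without leukemic replicate 1 (vertical axis). Points are coloured by the fits in which a gene passed, and the dashed line marks equal values. The 898 genes called in both fits have the same sign in both, and 1291 passed only without that library.

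Red cell genes fell together. Of the 15 red cell genes tested, 15 were lower with all 6 libraries, beside 3.94% of all genes, with a median log2 fold change of -4.07 (all genes 0.03). The same 15 passed without leukemic replicate 1 (median -4.20), and the omission counts were 15 in each fit. Hbb-bs, an adult beta globin, was at 7746, 8112 and 5753 CPM in the non-leukemic libraries and at 574, 249 and 223 CPM in the leukemic ones, or -4.37 in log2 fold change (SE 0.43, adjusted p = 0.00181). The leukemic libraries lay below the non-leukemic ones for each of the 15 genes, beside 15.4% of all genes. Counting can split reads between the near-identical globin copies Hbb-bs and Hbb-bt or Hba-a1 and Hba-a2, so their single values are uncertain.

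Among red cell membrane genes, Slc4a1, the band 3 anion exchanger, went from 1158, 1042 and 1275 CPM to 32.4, 32.2 and 54.5 CPM (-4.87, SE 0.28, adjusted p = 0.000405). The groups did not come near to overlapping. The membrane skeleton followed: Sptb, beta spectrin, was at 381, 306 and 373 CPM against 6.46, 20.7 and 11.5 CPM (-4.78, SE 0.44, adjusted p = 0.00138). Dmtn, which encodes dematin, was lower by a log2 change of -4.90 (adjusted p = 0.000751) and Tmod1, tropomodulin 1, of -4.29 (adjusted p = 0.000444), and both passed in each omission. Ackr1, the Duffy chemokine-binding receptor of red cells, went from 40.5, 42.9 and 33.6 CPM to 2.63, 0.989 and 1.34 CPM (-4.56, SE 0.42, adjusted p = 0.00135).

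Alas2, the red cell form of the first enzyme of heme synthesis, was at 714, 679 and 547 CPM without leukemia and at 46.9, 30.5 and 25.6 CPM with it (-4.23, SE 0.28, adjusted p = 0.000555). Klf1, a transcription factor of red cell genes, went from 677, 636 and 545 CPM to 121, 96.7 and 86.0 CPM (-2.61, SE 0.19, adjusted p = 0.000708). Gata1, which acts in red cells, megakaryocytes, eosinophils and mast cells, went from 347, 334 and 308 CPM to 100.7, 122 and 82.0 CPM (-1.70, SE 0.18, adjusted p = 0.00281). All 3 passed in each of the 6 omissions, and their groups did not overlap. The other genes with the largest falls by the naming rule were Inhca, Redrum (a noncoding RNA of red cell precursors), Sec14l2, Pdia2, Phyhip and Btnl10, with log2 fold changes from -4.66 for Inhca to -4.25 for Btnl10. Sec14l2 had no count in leukemic replicate 1 and passed only without it when a library was left out (adjusted p = 2.98e-05, against 0.0811 to 0.174 in the other 5 fits), and Phyhip passed in 2 of the 6 fits, without leukemic replicate 1 and without leukemic replicate 3.

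The red cell list summed to 2.64%, 2.58% and 2.09% of the counts in the non-leukemic libraries and to 0.279%, 0.188% and 0.182% in the leukemic ones. In bulk RNA, fewer cells of a type and less RNA per cell cannot be told apart, here or in any list that follows. The motif AGATAA, bound by GATA factors, was searched on both strands in the 250 bases before each gene's start in the RefSeq promoter table. It occurred in 3 of the 12 red cell genes the table holds, Alas2, Epb42 and Hbb-bs, in 13% of the 440 genes called lower that have a promoter there, 12.8% of the 265 called higher, 7.77% of those tested and 11.4% of all 27025 promoters.

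**Figure D2:**
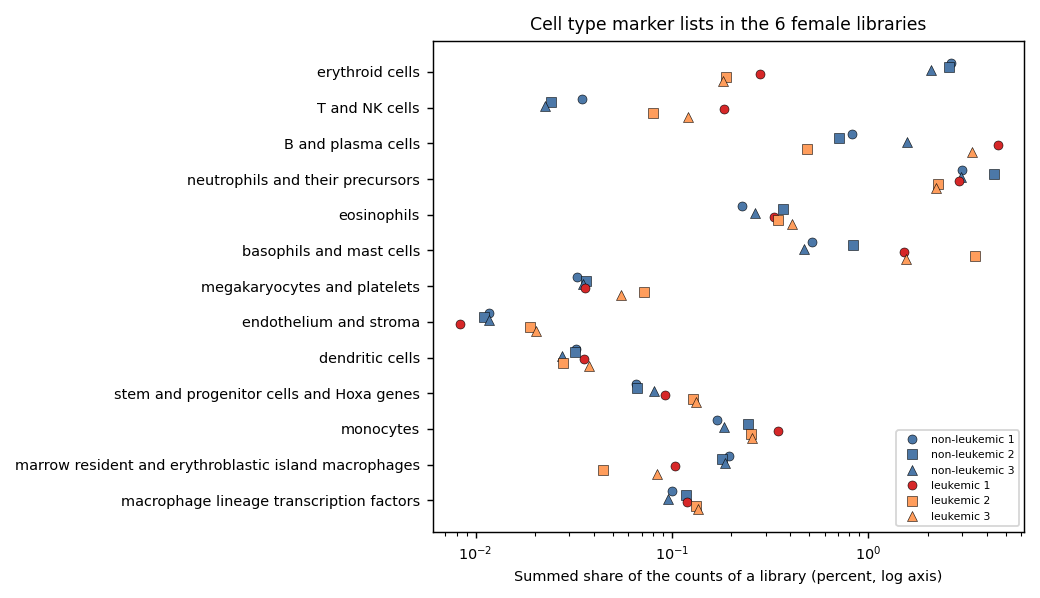
Summed share of each library's counts (percent, log axis) taken by the genes of each cell type list, with 1 point per library. Red cell genes took 2.09% to 2.64% of the non-leukemic libraries and 0.182% to 0.279% of the leukemic ones, T and NK cell genes moved the other way, and the B and plasma cell list differed most between replicates of the same group.

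Genes of resident and erythroblastic island macrophages also fell. Of 21 tested, 9 were lower and 0 higher (median -1.23), with omission counts of 4, 6, 6, 15, 8 and 8. DESeq2 called 11 of them lower and 0 higher, beside 1081 lower and 947 higher of all 14452 genes. At an unadjusted p under 0.05 there were 12 lower and 0 higher, beside 3079 of all genes in either direction. The list took 0.18% to 0.194% of the non-leukemic libraries' counts and 0.0445% to 0.103% of the leukemic ones. Slc40a1, which encodes the iron exporter ferroportin, was at 266, 236 and 273 CPM without leukemia and at 65.9, 53.7 and 75.9 CPM with it (-1.99, SE 0.18, adjusted p = 0.00131). Fcna, a secreted lectin made by resident macrophages, went from 68.5, 70.0 and 66.7 CPM to 8.08, 7.38 and 8.63 CPM (-3.09, SE 0.18, adjusted p = 0.000405). In both genes the 3 libraries of a group lay close together and far from the other group. Epor, the erythropoietin receptor, which red cell precursors express as well, went from 160, 127 and 138 CPM to 19.6, 15.9 and 23.8 CPM (-2.84, SE 0.21, adjusted p = 0.000708). Epor moved with the red cell list, whose part in its fall, and in those of Slc40a1 and the other members, was not tested.

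Scavenger receptors shared several of these genes: 4 of 14 tested fell and 0 rose (median -0.36, and -0.90 without leukemic replicate 1), with omission counts of 1, 3, 3, 6, 4 and 4. Cd163, which takes up hemoglobin bound to haptoglobin, went from 30.1, 32.3 and 29.6 CPM to 3.31, 5.90 and 6.56 CPM (-2.55, SE 0.31, adjusted p = 0.0047). Mrc1, the mannose receptor CD206, went from 52.6, 39.8 and 49.4 CPM to 14.0, 8.55 and 14.0 CPM (-1.95, SE 0.26, adjusted p = 0.00775). Cd163 passed in each of the 6 omissions, and Mrc1 in all but the fit without non-leukemic replicate 1 (adjusted p = 0.0567). Stab2, which clears hyaluronan and dying cells, fell too (log2 change -3.38, adjusted p = 0.00774, or 0.0557 without non-leukemic replicate 1). Cd36, a receptor for lipids and dying cells, fell by 1.84 (adjusted p = 0.0192, and 0.0731 to 0.0904 without any 1 non-leukemic library). Of 15 genes of dead cell clearance, Stab2 and Axl fell and 0 rose (omission counts of 0, 1, 1, 2, 2 and 2 for the fall). For the rise the omission counts were 0, 0, 0, 1, 0 and 0, and the gene was Elmo1 (adjusted p = 0.00975 without leukemic replicate 1). Axl, a receptor for bridging molecules on dying cells, was at 163, 188 and 184 CPM against 54.7, 37.9 and 81.9 CPM (-1.62, SE 0.28, adjusted p = 0.018, and 0.0796 to 0.0853 without any 1 non-leukemic library).

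Iron and heme handling had 7 of 17 genes lower and 0 higher (median -0.76), with omission counts of 6, 6, 6, 11, 6 and 6. Beside Slc40a1 and Cd163, these were Steap3, Blvrb, Tfrc, Slc11a2 and Hmox1. Blvrb, a biliverdin reductase abundant in red cells, went from 804, 704 and 629 CPM to 154, 95.4 and 79.6 CPM (-2.70, SE 0.28, adjusted p = 0.00224). Steap3, which reduces iron in endosomes, went from 113, 99.97 and 108 CPM to 32.4, 33.2 and 30.1 CPM (-1.75, SE 0.15, adjusted p = 0.0011). Leukemic and non-leukemic libraries did not overlap for either. Of the 17 list members, 11 lay wholly lower and 0 wholly higher, beside 15.4% and 14.8% of all genes. Hmox1, the enzyme that opens the heme ring, was at 154, 122 and 129 CPM against 64.9, 20.2 and 31.2 CPM. The change of -1.80 (SE 0.40, adjusted p = 0.0435) was -2.41 without leukemic replicate 1 (adjusted p = 0.000295) and did not pass with any other library left out. Tfrc, Steap3 and Blvrb serve red cell precursors as well as macrophages, and the part of the red cell list in their fall was not tested.

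Genes of T and NK cells rose. Of 16 tested, 11 were higher and 0 lower, beside 2.51% of all genes, with a median of 2.89 (2.25 without leukemic replicate 1), and the omission counts were 5, 3, 3, 11, 12 and 11. Cd3e, a chain of the T cell receptor complex, was at 15.8, 8.13 and 8.34 CPM without leukemia and at 178, 41.5 and 73.0 CPM with it (3.18, SE 0.58, adjusted p = 0.0214). Leukemic replicate 1 was the highest for Cd3e, Cd3d and Cd3g, and without it the log2 fold change of Cd3e was 2.39 (adjusted p = 0.00342). With any 1 non-leukemic library left out the adjusted p of Cd3e ran from 0.0762 to 0.113. Cd6, a T cell surface receptor, was at 8.60, 6.58 and 5.32 CPM against 58.6, 37.4 and 61.2 CPM (2.94, SE 0.30, adjusted p = 0.0022), and Cd5, another, rose by 3.34 (SE 0.39, adjusted p = 0.00407). Both passed in each of the 6 omissions. Gzmb, a killer cell protease, was at 15.2, 11.9 and 10.4 CPM against 165, 145 and 79.2 CPM (3.38, SE 0.32, adjusted p = 0.00161), and it too passed in each. The list summed to 0.0348%, 0.0241% and 0.0226% of the counts without leukemia and to 0.185%, 0.0797% and 0.12% with it.

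Other T cell genes were among the largest rises by the naming rule. Lat, a T cell receptor adaptor that mast cells and platelets share, was chosen after its values were seen, as 1 of the 13 genes above: it was at 14.2, 13.9 and 12.99 CPM against 74.5, 76.4 and 70.9 CPM (2.43, SE 0.17, adjusted p = 0.000619). Tnfrsf4, the costimulatory receptor OX40, was at 3.01, 1.61 and 5.17 CPM against 86.0, 14.7 and 45.9 CPM (3.89, SE 0.72, adjusted p = 0.0224). Cd247, the zeta chain of the T cell receptor complex, rose with a log2 change of 2.78 (adjusted p = 0.0104), and Cd28, a costimulatory receptor, by 2.65 (adjusted p = 0.038). Cd247 did not pass without non-leukemic replicate 1 or 2 (adjusted p = 0.0731 and 0.0642). Tnfrsf4 and Cd28 passed in 2 of the 6 omissions, without leukemic replicate 1 and without leukemic replicate 2. Chst2, a sulfotransferase, was at 4.65, 3.06 and 4.13 CPM against 29.3, 21.6 and 33.3 CPM (2.83, SE 0.30, adjusted p = 0.00248) and passed in each omission.

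Checkpoint receptors and ligands rose in 7 of 14 genes and fell in 0 (median 1.30), with omission counts of 1, 1, 1, 7, 7 and 4 for the rise. For the fall the omission counts were 0, 0, 0, 1, 0 and 0. Pdcd1, the receptor PD-1, which the T cell list also holds, was at 5.74, 5.22 and 8.75 CPM without leukemia and at 83.4, 35.8 and 74.4 CPM with it (3.29, SE 0.39, adjusted p = 0.00407), and passed in each omission. Cd274, its ligand PD-L1, was at 11.3, 10.6 and 10.7 CPM against 29.3, 25.6 and 27.2 CPM (1.33, SE 0.21, adjusted p = 0.0123). The libraries of each group lay close together for Cd274, yet it did not pass without any 1 of the non-leukemic libraries (adjusted p from 0.0770 to 0.0792). Lag3, an inhibitory receptor of T cells, was at 2.96, 3.21 and 2.68 CPM against 22.4, 11.5 and 9.49 CPM (2.29, SE 0.41, adjusted p = 0.02). Cd200r1, an inhibitory receptor of myeloid cells, was at 14.7, 12.7 and 13.5 CPM against 37.2, 35.0 and 26.8 CPM (adjusted p = 0.0184). Ctla4, Tigit and Havcr2 were the other members that rose. The T and NK cell list moved with these genes, and its part in their rise was not tested.

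**Figure D3:**
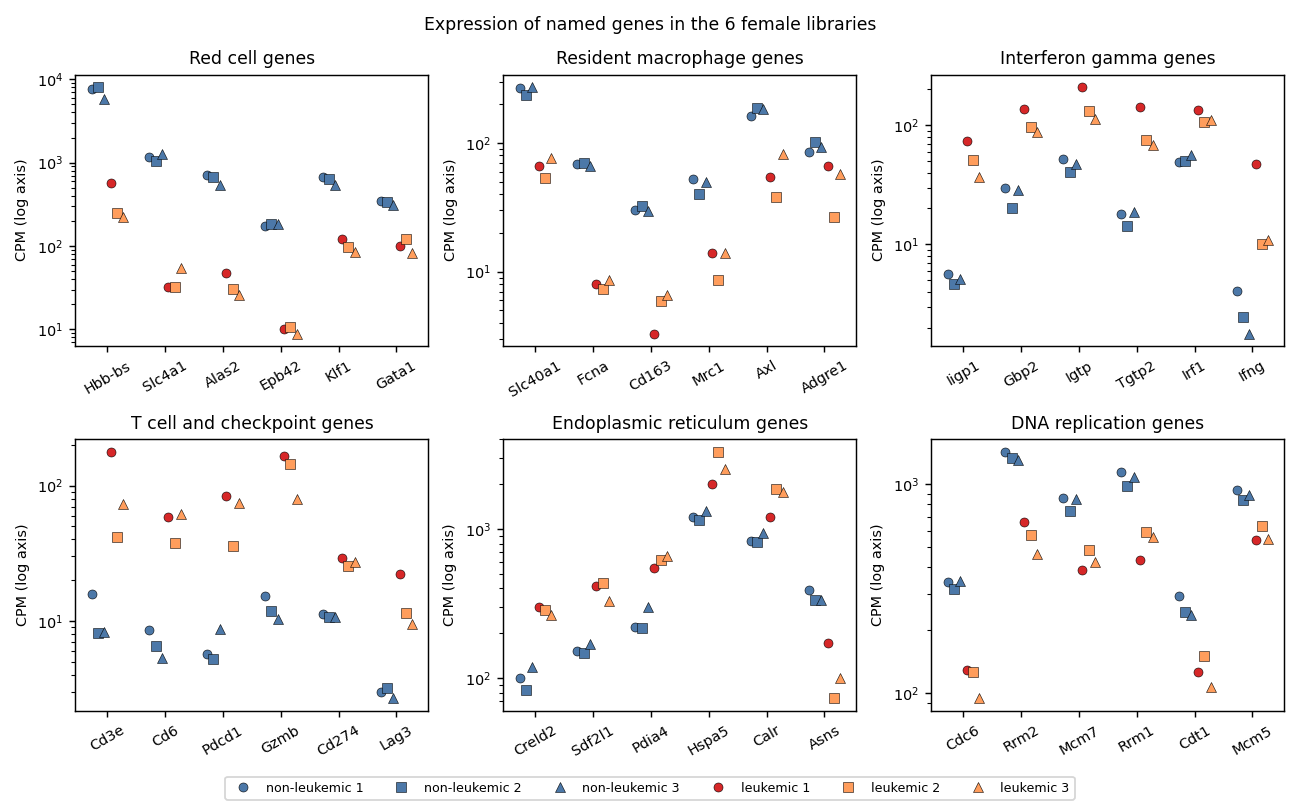
CPM (log axis) of 36 named genes in the 3 non-leukemic (blue) and 3 leukemic libraries (leukemic replicate 1 in red, replicates 2 and 3 in orange), with shapes for the replicates. Red cell, resident macrophage and DNA replication genes lie lower in the leukemic libraries, interferon gamma, T cell and checkpoint genes higher, and Asns lies lower in the panel of endoplasmic reticulum genes, where the other genes lie higher.

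Basophil and mast cell genes rose in 7 of 11 and fell in 0 (median 1.89). Omission counts were 0, 0, 0, 6, 5 and 5, so no call held without any 1 of the non-leukemic libraries. Ms4a2, the beta chain of the IgE receptor, was at 66.9, 104 and 69.0 CPM without leukemia and at 195, 421 and 275 CPM with it (1.89, SE 0.32, adjusted p = 0.0172). Prss34, a basophil protease, was at 2861, 4903 and 2648 CPM against 9370, 18089 and 9167 CPM (1.81, SE 0.37, adjusted p = 0.0311). Non-leukemic replicate 2 was the highest of its group for both, and leukemic replicate 2 the highest of the other. Fcer1a, the alpha chain of the IgE receptor, and Cpa3, a mast cell carboxypeptidase, passed with 6 libraries (adjusted p = 0.0219 and 0.0258) and not without leukemic replicate 1 (0.0611 and 0.0612), at log2 fold changes of 2.30 and 2.15 with it and 2.34 and 2.25 without. Gata2, a transcription factor of mast cells, basophils and stem cells, was at 143, 175 and 135 CPM against 280, 660 and 416 CPM (1.58, SE 0.31, adjusted p = 0.0278). The list took 0.471% to 0.833% of the non-leukemic libraries and 1.51% to 3.47% of the leukemic ones.

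Stem and progenitor genes, several of which leukemic blasts are known to express, rose in 3 of 14 and fell in 0 (median 0.74, and 8 of 14 without leukemic replicate 1). Omission counts were 0, 0, 1, 8, 2 and 1. Cd34, a surface protein of progenitors, was at 109, 130 and 163 CPM against 391, 275 and 314 CPM (1.29, SE 0.21, adjusted p = 0.0153). Hoxa9, a homeobox gene of stem cells and many leukemias, was at 9.83, 8.13 and 13.6 CPM against 36.0, 21.0 and 24.2 CPM (1.36, SE 0.31, adjusted p = 0.0475), and Hoxa7, its neighbour, rose by 1.63 (SE 0.33, adjusted p = 0.0315). Each leukemic library lay above each non-leukemic one for all 3 genes, named for their low p. The same held for 7 of the 14 list members, beside 14.8% of all genes. Outside the fit without leukemic replicate 1, Hoxa9 did not pass in any omission.

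Neutrophil genes went both ways. Ctsg and Mpo, proteases and peroxidase of early granules, rose: Ctsg was at 342, 432 and 362 CPM against 1133, 1252 and 705 CPM (1.44, SE 0.24, adjusted p = 0.0163), and Mpo at 3677, 4250 and 4163 CPM against 6746, 8013 and 6889 CPM (0.84, SE 0.17, adjusted p = 0.0307). Ltf, lactoferrin of the later granules, fell from 3744, 5658 and 3946 CPM to 1619, 1592 and 1806 CPM (-1.41, SE 0.21, adjusted p = 0.0107). Of 16 neutrophil genes tested these 3 passed, and Elane and Prtn3 of the same list did not. Without leukemic replicate 1, 2 higher and 7 lower passed. Ctsg did not pass without non-leukemic replicate 1, 2 or 3 (adjusted p from 0.0730 to 0.11), Mpo passed in no omission but that of leukemic replicate 1 (0.0623 to 0.201 in the others), and Ltf did not pass without non-leukemic replicate 3 (0.0501). The list summed to 3.01%, 4.36% and 2.96% of the counts without leukemia and to 2.9%, 2.25% and 2.21% with it, each leukemic library just below each non-leukemic one.

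In the monocyte list 2 of 14 rose, Plac8 among them (1.57, SE 0.33, adjusted p = 0.0342), and 0 fell. Omission counts were 0, 0, 0, 3, 1 and 2 for the rise and 0, 0, 0, 1, 0 and 0 for the fall. The list was split: its median was 0.01, and -0.25 without leukemic replicate 1. Wholly higher with leukemia were 3 monocyte genes (beside 14.8% of all genes) and wholly lower 3 (beside 15.4%). Of 11 dendritic cell genes, 3 fell and 0 rose, with omission counts of 2, 2, 2, 3, 2 and 3 for the fall and 0, 0, 0, 4, 1 and 0 for the rise. The list median was 0.54. Wholly higher with leukemia were 4 members (beside 14.8% of all genes) and wholly lower 3 (beside 15.4%). The 4 that rose without leukemic replicate 1 (beside 6.4% of all genes) were Flt3, Ccr7, Bst2 and Fscn1. Cd209a, a lectin of monocyte-derived dendritic cells, went from 48.1, 81.0 and 50.03 CPM to 11.5, 9.64 and 13.6 CPM (-2.37, SE 0.28, adjusted p = 0.00407). Zbtb46, a transcription factor of classical dendritic cells that red cell precursors also express, fell by 2.26 (SE 0.30, adjusted p = 0.00666), and both passed in each omission. Single genes fell in 3 further lists, against the sign of the median in the first 2: Ccr3, a chemokine receptor of eosinophils (-1.81, adjusted p = 0.0141), Gp9, a platelet membrane glycoprotein (-1.78, adjusted p = 0.00968), and Col1a1, type I collagen (-5.96, adjusted p = 0.00655). The eosinophil list had a median of 0.30, and without leukemic replicate 1 Epx and Siglecf rose and Ccr3 fell of 10. The megakaryocyte and platelet list had a median of 0.77, with 4 of 8 members wholly higher (beside 14.8% of all genes). Without leukemic replicate 1, 3 of the 8 rose and Gp9 fell. In that fit 6.4% of all genes rose and 9.11% fell. Col1a1 was at 22.6, 10.4 and 10.4 CPM without leukemia and at 0.0376, 0.424 and 0.216 CPM with it, and passed in each omission. Its list, endothelium and stroma, went both ways, with a median of -0.29, and 0.03 without leukemic replicate 1. Of the 10 genes tested, 2 lay wholly higher and 3 wholly lower. Without leukemic replicate 1, Pecam1 of the same list rose and Col1a1 fell (adjusted p = 0.000511 and 0.000866). The list took 0.0111% to 0.0117% of the counts without leukemia and 0.00829%, 0.0189% and 0.0203% with it. Ccr3 did not pass without non-leukemic replicates 1, 2 or 3 or leukemic replicate 3 (adjusted p from 0.0513 to 0.0756), and Gp9 not without non-leukemic replicate 1 or 3 (0.0678 and 0.0614). Of 16 transcription factors of the macrophage lineage, 1 rose, Bhlhe40 (1.59, SE 0.36, adjusted p = 0.0459), near the share of all genes called, and limma-voom called 0. Bhlhe40 passed only in the omissions of leukemic replicates 1 and 2 (adjusted p from 0.109 to 0.209 in the others). Without leukemic replicate 1, 3 of the 16 rose and 2 fell.

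The defence GTPases induced by interferon gamma rose in 11 of 16 genes and fell in 0, with a median of 1.63, and in 14 of 16 without leukemic replicate 1 (median 1.48). Omission counts were 3, 4, 3, 14, 9 and 7. These proteins, the immunity-related GTPases and the guanylate-binding proteins, gather on the vacuoles of intracellular parasites and bacteria. Their promoters are shown because one sequence recurs in them, the interferon-stimulated response element, searched here on both strands as GAAA, any 2 bases and GAAA, within 250 bases before the start. It was present in 10 of the 11 members that the RefSeq table holds, against 3.46% of all 27025 promoters, 3.51% of those of the genes tested, 10.6% of the 265 genes called higher and 1.59% of the 440 called lower. A gamma-activated site, TTC, any 3 bases and GAA, was in 6 of the 11 and in 8.13% of all promoters. A match describes letters in a window and is not a site shown to be bound. The 150 bases before the start of 3 members follow, with the match in capitals, at chr11:58199406-58199555 on the plus strand for Igtp, and on the minus strand at chr11:49064213-49064362 for Tgtp2 and chr11:48871421-48871570 for Irgm1, all in GRCm38.p6 (RefSeq), an older build than the GRCm39 on which the reads were counted.
Igtp: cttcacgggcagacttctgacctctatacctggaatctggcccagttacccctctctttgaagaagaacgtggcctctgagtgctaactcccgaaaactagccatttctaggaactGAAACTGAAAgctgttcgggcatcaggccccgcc
Tgtp2: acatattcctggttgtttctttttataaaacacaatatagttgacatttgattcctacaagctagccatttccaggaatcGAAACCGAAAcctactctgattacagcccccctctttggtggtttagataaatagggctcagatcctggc
Irgm1: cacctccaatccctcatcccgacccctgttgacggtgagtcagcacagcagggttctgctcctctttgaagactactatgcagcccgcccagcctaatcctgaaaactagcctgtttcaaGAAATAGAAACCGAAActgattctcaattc

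The match lay 34 to 25 bases before the start in Igtp and 70 to 61 in Tgtp2, and Irgm1 had 2 overlapping matches. Irgm1 itself did not pass with 6 libraries (adjusted p = 0.0574) and passed without leukemic replicate 1 (0.00511). Igtp was at 52.0, 40.2 and 46.9 CPM without leukemia and at 210, 131 and 113 CPM with it (1.70, SE 0.26, adjusted p = 0.012). Tgtp2 was at 18.0, 14.2 and 18.8 CPM against 142, 74.6 and 67.8 CPM (2.48, SE 0.32, adjusted p = 0.0064). Leukemic replicate 1 was the highest library for both. Iigp1, which loads onto parasite vacuoles, was at 5.59, 4.67 and 5.10 CPM against 73.8, 50.8 and 37.1 CPM (3.39, SE 0.31, adjusted p = 0.00129), and Gbp2 at 29.9, 20.1 and 28.5 CPM against 138, 95.8 and 88.1 CPM (2.03, SE 0.25, adjusted p = 0.0047). Iigp1 and Gbp2 passed in each of the 6 omissions, and Tgtp2 in all but the fit without non-leukemic replicate 1 (adjusted p = 0.0532). Reads of Tgtp1 and Tgtp2, or of neighbouring Gbp genes, may be split between near-identical copies, so the value of a single member is uncertain.

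Ifng, interferon gamma itself, was at 4.04, 2.46 and 1.79 CPM without leukemia and at 47.4, 10.03 and 10.9 CPM with it (3.04, SE 0.71, adjusted p = 0.0484). Leukemic replicate 1 lay far above the other leukemic libraries, and without it the log2 fold change was 1.91 (adjusted p = 0.0178). Without non-leukemic replicates 1, 2 or 3 or leukemic replicate 3 Ifng did not pass (adjusted p from 0.0553 to 0.189). Irf1, a transcription factor that interferon gamma induces, was at 48.8, 50.5 and 55.9 CPM against 135, 105 and 110 CPM (1.17, SE 0.17, adjusted p = 0.00898), and Stat3, which answers interleukin 6 and 10, rose by 0.81 (SE 0.14, adjusted p = 0.0201). Of 16 receptor, STAT, IRF and SOCS genes 4 rose, and 0 fell (omission counts of 0, 1, 0, 4, 5 and 2). The T and NK cell list rose in the same libraries, and its part in the level of Ifng was not tested.

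Genes of antigen presentation by MHC class I rose in 6 of 13 and fell in 0 (median 1.03), and in 10 of 13 without leukemic replicate 1. Omission counts were 1, 1, 1, 10, 5 and 5. For each of the 13 genes the leukemic libraries lay above the non-leukemic ones, beside 14.8% of all genes. Nlrc5, the activator of class I genes, was at 29.2, 23.2 and 22.0 CPM against 74.2, 69.4 and 63.9 CPM (1.48, SE 0.19, adjusted p = 0.00549) and passed in each omission. H2-K1, a classical class I heavy chain with near-identical relatives, was at 1110, 1157 and 1025 CPM against 2890, 1895 and 2202 CPM (1.09, SE 0.20, adjusted p = 0.0213). Psmb8, a subunit of the immunoproteasome, rose by 1.20 (SE 0.22, adjusted p = 0.0222), and Tap1, of the peptide transporter, by 0.94 (SE 0.17, adjusted p = 0.0216). These did not pass without any 1 of the non-leukemic libraries (adjusted p from 0.102 to 0.139 for Psmb8).

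Antiviral genes of the type I interferon response split. Of 19 tested, 3 rose and 1 fell (median 0.98, and 0.44 without leukemic replicate 1), with omission counts of 0, 0, 1, 4, 1 and 3 for the rise. For the fall the omission counts were 0, 0, 1, 2, 0 and 1. Zbp1, a sensor of Z-form nucleic acids, was at 18.4, 17.3 and 10.8 CPM against 93.0, 52.5 and 62.4 CPM (2.16, SE 0.31, adjusted p = 0.00918). Oasl2 rose by 1.45 (SE 0.28, adjusted p = 0.0252) and Ifit1, which binds viral RNA, by 1.42 (SE 0.32, adjusted p = 0.0464). Rsad2, the antiviral enzyme viperin, went the other way, from 146, 167 and 106 CPM to 53.7, 28.5 and 24.6 CPM (-1.97, SE 0.33, adjusted p = 0.0172). Its promoter held the same interferon-stimulated motif. Rsad2 did not pass without non-leukemic replicate 1 or 2 or leukemic replicate 2 (adjusted p from 0.0535 to 0.0889).

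Chemokines rose in both families. Of 12 CC chemokines 4 rose and 0 fell (median 2.04, and 1.42 without leukemic replicate 1), and of 7 CXC chemokines 2 rose and 0 fell. Omission counts were 0, 0, 0, 5, 3 and 3 for the first and 0, 0, 0, 2, 2 and 0 for the second. Ccl24, an eosinophil attractant of alternatively activated macrophages, had the largest log2 fold change among genes that met the naming rule, 5.72 (SE 0.96, adjusted p = 0.0165). It was at 0.846, 0.452 and 1.04 CPM without leukemia and at 93.2, 8.79 and 23.7 CPM with it, and without leukemic replicate 1 its log2 fold change was 4.34 (adjusted p = 0.00161). Ccl4, which draws T and NK cells and which they also make, was at 40.0, 19.3 and 19.99 CPM against 400, 97.9 and 104 CPM (2.92, SE 0.63, adjusted p = 0.0374). Cxcl9, a chemokine induced by interferon gamma that draws T cells, was at 4.09, 7.78 and 4.13 CPM against 59.3, 15.8 and 23.0 CPM (2.62, SE 0.56, adjusted p = 0.0361), and its relative Cxcl10 rose by 2.63 (SE 0.60, adjusted p = 0.0469). Leukemic replicate 1 was the highest library for each of these 4 genes. Serpina3f, a protease inhibitor outside these lists, was at 5.64, 5.12 and 8.08 CPM against 116, 30.4 and 55.4 CPM (3.42, SE 0.51, adjusted p = 0.0112), and it did not pass without any 1 non-leukemic library (adjusted p from 0.0541 to 0.0796).

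Genes that type 2 cytokines induce in macrophages went in both directions, with 2 of 15 higher (Ccl24 and Retnla) and 2 lower (Mrc1 and Cd209a). Without leukemic replicate 1, 3 were higher and 2 lower of 14 tested. Retnla, a secreted protein of alternatively activated macrophages, had 1, 0 and 1 counts without leukemia and 101, 44 and 49 counts with it (adjusted p = 0.0133). It did not pass without any 1 non-leukemic library (adjusted p from 0.0532 to 0.0716) and had too few counts to be tested without a leukemic one. Arg1, arginase 1, was at 5.88, 4.07 and 3.83 CPM against 23.6, 3.25 and 4.27 CPM, so leukemic replicate 1 alone lay above the others, and it did not pass (1.17, SE 0.75, adjusted p = 0.453). Nos2, the inducible nitric oxide synthase, had 3 counts in leukemic replicate 1 and 0 in the other 5 libraries. Of 12 genes of arginine and polyamine metabolism, Ass1, which remakes arginine, rose (1.27, SE 0.26, adjusted p = 0.0313) and Odc1, the first enzyme of polyamine synthesis, fell (-0.93, SE 0.18, adjusted p = 0.0275). Both passed in the omission of leukemic replicate 1 and in no other. In that fit 1 of the 12 rose and 2 fell.

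Growth factors and TNF family ligands rose in 4 of 13 and fell in 0, with omission counts of 0, 0, 1, 5, 3 and 2 for the rise. For the fall the omission counts were 0, 0, 0, 1, 0 and 0. Tnfsf10, the death ligand TRAIL, was at 4.80, 4.82 and 8.04 CPM against 28.2, 20.4 and 27.1 CPM (2.10, SE 0.31, adjusted p = 0.0107). Csf1, the growth factor of macrophages, was at 22.0, 34.2 and 20.3 CPM against 62.4, 147 and 90.4 CPM (1.97, SE 0.36, adjusted p = 0.0217), and Spp1, osteopontin, at 20.3, 28.8 and 21.6 CPM against 93.9, 54.5 and 54.9 CPM (1.53, SE 0.28, adjusted p = 0.0222). The groups did not overlap for any of the 3, and Hgf, hepatocyte growth factor, rose by 1.58 (SE 0.32, adjusted p = 0.031). Of the 13 list members, 6 lay wholly higher and 3 wholly lower, beside 14.8% and 15.4% of all genes. Of 13 inflammatory and regulatory cytokines, 1 rose, Il6 (2.31, SE 0.52, adjusted p = 0.0445), which passed without leukemic replicate 1 and in no other omission. Csf1r, the receptor for Csf1 and a member of the monocyte list, was at 285, 550 and 357 CPM against 233, 150 and 252 CPM and did not pass (-0.91, SE 0.30, adjusted p = 0.128).

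Genes of protein folding in the endoplasmic reticulum rose, and a gene of the amino acid response fell. Of 18 genes of the unfolded protein and integrated stress responses, 7 rose and 1 fell (median 0.91), with omission counts of 1, 2, 3, 9, 5 and 3 for the rise. For the fall the omission counts were 0, 0, 0, 2, 1 and 1. The endoplasmic reticulum stress element, searched as CCAAT, any 9 bases and CCACG on both strands, was in 35 of the 27025 promoters (0.13%). It occurred in 4 of the 18 members, Hspa5, Hsp90b1, Creld2 and Calr, in 6 of the 265 genes called higher with a promoter (2.26%) and in 0 of the 440 called lower. Hsp90b1 did not pass with 6 libraries (adjusted p = 0.0777). The promoter of Creld2, the member with the lowest p, is shown with its match in capitals on the opposite strand, 126 to 108 bases before the start, at chr15:88819496-88819645 on the plus strand of GRCm38.p6 (RefSeq).
Creld2: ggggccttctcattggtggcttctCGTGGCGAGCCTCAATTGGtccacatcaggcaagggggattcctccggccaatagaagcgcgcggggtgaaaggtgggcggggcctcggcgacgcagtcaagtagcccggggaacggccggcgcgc

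Creld2, a resident protein of the endoplasmic reticulum, was at 100.2, 83.6 and 119 CPM without leukemia and at 299, 287 and 264 CPM with it (1.49, SE 0.18, adjusted p = 0.00407), and it passed in each omission. Sdf2l1, a partner of the chaperone BiP, was at 152, 148 and 169 CPM against 413, 438 and 331 CPM (1.33, SE 0.16, adjusted p = 0.00484). Pdia4, a disulfide isomerase, was at 221, 215 and 298 CPM against 546, 618 and 664 CPM (1.31, SE 0.18, adjusted p = 0.0087). The 3 genes had groups that did not overlap, and leukemic replicate 1 did not stand apart from the other leukemic libraries. Of the 18 list members, 10 lay wholly higher and 3 wholly lower, beside 14.8% and 15.4% of all genes. Hspa5, which encodes BiP, was at 1204, 1156 and 1316 CPM against 2017, 3307 and 2524 CPM (1.09, SE 0.21, adjusted p = 0.0264) and passed only without leukemic replicate 1 when a library was left out. Calr, Herpud1 and Dnajb9 were the other members that rose. Asns, which makes asparagine and is a target of the amino acid response factor ATF4, fell from 389, 334 and 334 CPM to 171, 73.1 and 99.8 CPM (-1.62, SE 0.31, adjusted p = 0.0244). It passed in the omissions of leukemic replicate 1 (adjusted p = 0.000196) and 2 (0.0439) and in no other.

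Among heat shock and co-chaperone genes, 4 of 16 rose and 0 fell. Hspa5, counted here as well, was 1 of the 4 that rose. Omission counts were 0, 0, 0, 6, 0 and 2 for the rise and 0, 0, 0, 1, 0 and 0 for the fall. Hspa8, the constitutive HSP70, was at 859, 733 and 767 CPM against 1622, 1578 and 1146 CPM (0.88, SE 0.19, adjusted p = 0.0351), and Chordc1, a co-chaperone of HSP90, rose by 0.79 (SE 0.15, adjusted p = 0.0243). Hspa1b, a stress-induced HSP70 with a near-identical copy in Hspa1a, was at 12.1, 13.3 and 12.4 CPM against 21.0, 55.9 and 110 CPM (2.31, SE 0.54, adjusted p = 0.049). Of 15 immediate early genes, 3 rose and 0 fell (median 1.14), with omission counts of 0, 0, 0, 6, 4 and 1. Egr1, an early response transcription factor, was at 97.3, 85.3 and 71.0 CPM against 286, 202 and 406 CPM (1.82, SE 0.27, adjusted p = 0.0116), and Fos, of the AP-1 complex, at 864, 873 and 737 CPM against 2276, 1384 and 2311 CPM (1.27, SE 0.23, adjusted p = 0.0215). Such genes answer tissue handling as well as signals in the animal, and handling times are not given in the sources used here. Of 15 genes of the NF-kB pathway, Icam1, an adhesion molecule (1.18, SE 0.24, adjusted p = 0.0335), and Bcl3 (1.07, SE 0.24, adjusted p = 0.0426) rose, with omission counts of 0, 0, 0, 3, 5 and 0.

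The study's title concerns lactate and its receptor GPR81. The gene of that receptor, Hcar1, had 0 counts in all 6 libraries, where 3 counts, taken as the limit that a count of 0 allows, correspond to 0.106 to 0.151 CPM per library, for counting error only. Of 11 other genes of lactate transport and conversion, 1 rose and 2 fell, with omission counts of 0, 1, 0, 2, 1 and 1 for the rise and 0, 0, 0, 2, 2 and 1 for the fall. Slc16a1, the lactate transporter MCT1, was at 426, 402 and 443 CPM without leukemia and at 151, 260 and 187 CPM with it (-1.09, SE 0.22, adjusted p = 0.0287). Bsg, basigin, the chaperone that brings MCT1 to the membrane, went from 708, 666 and 657 CPM to 385, 365 and 369 CPM (-0.86, SE 0.13, adjusted p = 0.0126). Emb, embigin, a related chaperone, went up from 122, 168 and 143 CPM to 289, 279 and 285 CPM (0.98, SE 0.16, adjusted p = 0.0159). Groups did not overlap for any of these 3 genes. Of the 11 tested, 2 lay wholly higher and 2 wholly lower, beside 14.8% and 15.4% of all genes. Ldha, the lactate dehydrogenase subunit of glycolytic cells, was at 1077, 1108 and 1056 CPM against 2108, 1629 and 1533 CPM. Its log2 fold change was 0.70 (SE 0.17, adjusted p = 0.0579) and did not pass, whereas without leukemic replicate 1 it was 0.54 and passed (adjusted p = 0.00888). Red cells carry MCT1 and basigin in quantity, the red cell list fell in the same libraries, and its part in the fall of Slc16a1 and Bsg was not tested.

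Glycolysis genes rose in 4 of 17 and fell in 0 (median 0.54), and in 9 of 17 without leukemic replicate 1. Omission counts were 0, 1, 0, 9, 3 and 1. Slc2a1, the glucose transporter GLUT1, was at 17.5, 20.9 and 19.2 CPM against 56.3, 47.4 and 45.2 CPM (1.37, SE 0.19, adjusted p = 0.00852). Pfkp, a phosphofructokinase, was at 113, 115 and 101 CPM against 190, 353 and 295 CPM (1.35, SE 0.24, adjusted p = 0.0198), with leukemic replicate 1 the nearest to the non-leukemic libraries. Pgam1 (0.76, adjusted p = 0.0413) and Pgk1 (0.80, adjusted p = 0.0459), enzymes of the lower pathway, rose less. Of 15 hypoxia genes 3 rose and 0 fell: Slc2a1, Ndrg1 (0.89, SE 0.17, adjusted p = 0.0261) and Hif1a, the oxygen-regulated transcription factor, which was at 46.8, 58.9 and 61.9 CPM against 88.2, 106 and 133 CPM (0.96, SE 0.21, adjusted p = 0.0372). Omission counts were 0, 1, 0, 3, 1 and 1. Of 17 nuclear genes of the respiratory chain and ATP synthase, 1 fell, Ndufv1 of complex I (-0.73, SE 0.14, adjusted p = 0.0296). Without leukemic replicate 1, 9 of the 17 fell and 0 rose, and Ndufv1 passed in no other omission.

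Lipid uptake and efflux genes fell in 4 of 19 and rose in 0 (median -0.37), and without leukemic replicate 1 fell in 8 and rose in 1. Omission counts for the fall were 1, 1, 1, 8, 3 and 3, and for the rise 0, 0, 0, 1, 1 and 0. Lpl, lipoprotein lipase, was at 70.9, 65.4 and 65.2 CPM against 21.7, 12.1 and 19.4 CPM (-1.92, SE 0.25, adjusted p = 0.00628) and passed in each omission. Lpcat3, which remodels membrane phospholipids, fell by 1.09 (SE 0.17, adjusted p = 0.0126) and did not pass without any 1 non-leukemic library (0.0567 to 0.0812). Apoe, the apolipoprotein that macrophages secrete, was at 1152, 1789 and 1340 CPM against 662, 561 and 759 CPM (-1.11, SE 0.22, adjusted p = 0.0264), and it passed in the omission of leukemic replicate 1 and in no other. Of 22 lysosomal genes 1 rose and 0 fell, Glb1, beta-galactosidase (0.86, SE 0.14, adjusted p = 0.0133, and 0.0800 to 0.103 without any 1 non-leukemic library). Without leukemic replicate 1, Glb1 rose and 2 of the 22 fell, the protease Ctsb and the lipase Lipa. Both counts lie near the shares of all genes in that fit, 6.4% higher and 9.11% lower.

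DNA replication genes fell in 6 of 18 and rose in 0 (median -0.60), and in 14 of 18 without leukemic replicate 1. Omission counts were 1, 2, 1, 14, 5 and 3. Cdc6, which loads the replicative helicase, was at 339, 316 and 343 CPM without leukemia and at 129, 127 and 94.6 CPM with it (-1.51, SE 0.17, adjusted p = 0.00346), and passed in each omission. Rrm2, a subunit of ribonucleotide reductase, went from 1428, 1328 and 1299 CPM to 657, 569 and 464 CPM (-1.26, SE 0.17, adjusted p = 0.00835), and its partner Rrm1 from 1142, 984 and 1076 CPM to 432, 593 and 556 CPM (-1.02, SE 0.17, adjusted p = 0.0173). The leukemic libraries lay below the non-leukemic ones for 13 of the 18 genes (beside 15.4% of all genes), and above for 0. Mitosis genes fell in 3 of 18 and rose in 0 (median -0.56), and in 11 of 18 without leukemic replicate 1, with omission counts of 0, 0, 0, 11, 3 and 1. Aurka, a spindle kinase, was at 299, 324 and 282 CPM against 163, 170 and 143 CPM (-0.93, SE 0.15, adjusted p = 0.0133). Mki67, a marker of dividing cells, was at 478, 396 and 475 CPM against 78.8, 228 and 186 CPM and did not pass with 6 libraries (-1.45, SE 0.36, adjusted p = 0.06). It passed without leukemic replicate 1 (-1.13, adjusted p = 0.00185), the library in which it was lowest. Red cell precursors divide in the marrow, the red cell list fell in the same libraries, and its part in these falls was not tested.

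**Figure D4:**
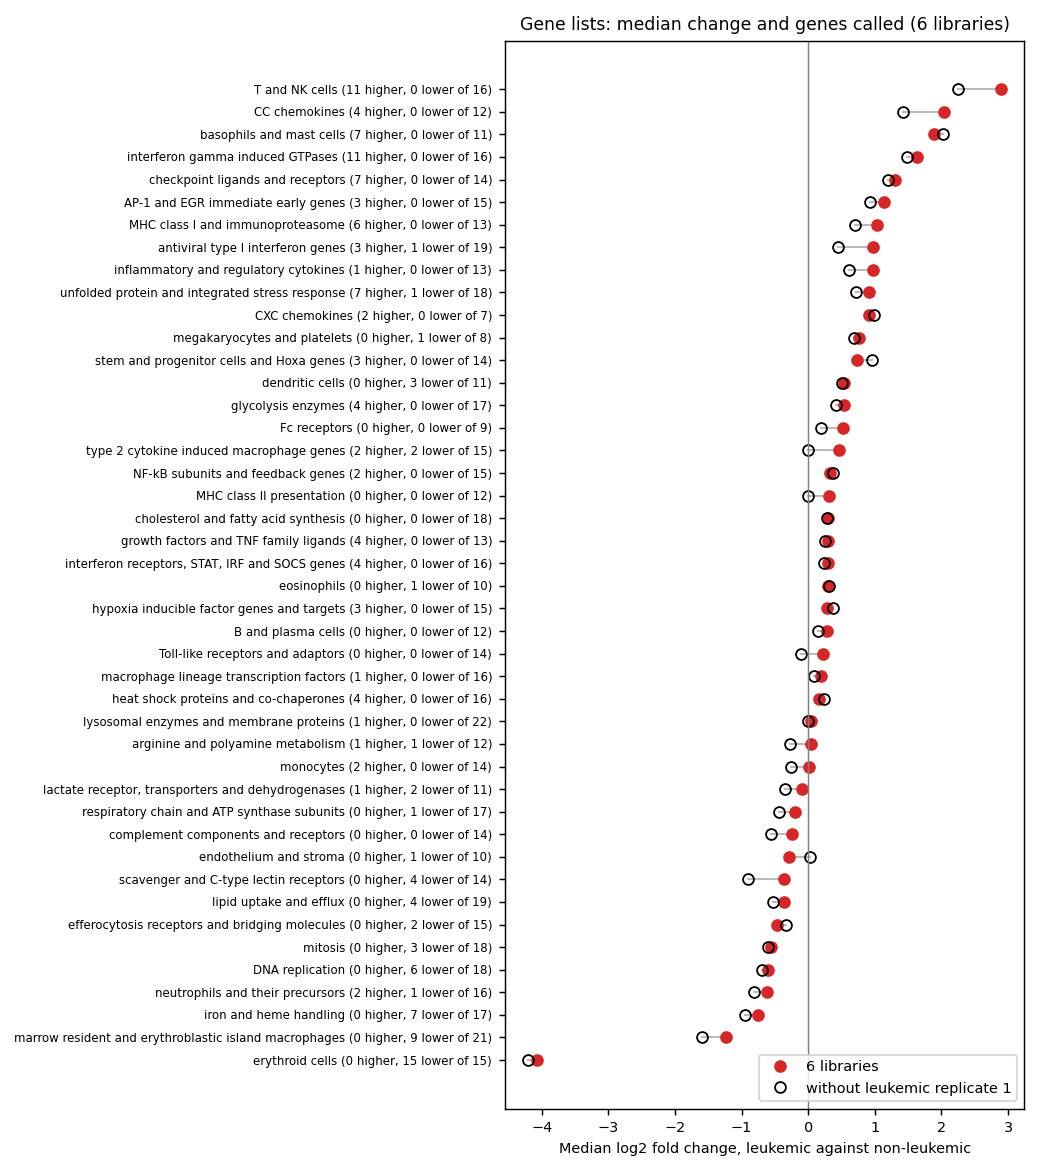
Median log2 fold change of each of the 44 gene lists, leukemic against non-leukemic, with all 6 libraries (filled) and without leukemic replicate 1 (open), with the number of members called higher and lower of those tested. The red cell list has the lowest median, -4.07, and the T and NK cell list the highest, 2.89, while the median over all genes was 0.03.

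Leaving out leukemic replicate 1 changed some genes more than others. Tph1, an enzyme of serotonin synthesis that mast cells also use, had 0, 10 and 0 counts without leukemia and 2206, 51 and 815 counts with it, and passed with 6 libraries (adjusted p = 0.0382) but not without that library (0.0765). Igkv6-32, an immunoglobulin segment, was at 5.64, 6.88 and 4.39 CPM against 126, 24.0 and 756 CPM (adjusted p = 0.0379, and 0.132 without it), and Igkv3-2, another, had adjusted p of 0.0252 and 0.0832. The B and plasma cell list took 0.827%, 0.707% and 1.57% of the counts without leukemia and 4.54%, 0.488% and 3.35% with it, and its part in these segments was not tested. Fth1, the ferritin heavy chain that stores iron, was at 3670, 3401 and 3134 CPM against 2311, 1222 and 1309 CPM. Its log2 fold change was -1.08 (adjusted p = 0.0602) with 6 libraries and -1.44 (adjusted p = 0.000204) without leukemic replicate 1. Prdx3, a mitochondrial peroxiredoxin (-1.30, adjusted p = 0.000209), Atpif1, an inhibitor of ATP synthase (-1.42, adjusted p = 0.00043), and Slfn14 (-4.69, adjusted p = 0.000422) also passed only in that fit, as did Ptprs, a receptor phosphatase (1.37, adjusted p = 0.000436). Leukemic replicate 1 lay between the non-leukemic and the other leukemic libraries for Fth1, Prdx3, Atpif1 and Slfn14, and below all of them for Ptprs.

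The same library also differed by transcript length. Over 13791 of the genes tested (95.4%) whose longest transcript in GENCODE vM21 has a length, the median log2 ratio of leukemic replicate 1 to the mean of leukemic replicates 2 and 3 was 0.5 in the quartile of shortest genes, then 0.07, -0.25 and -0.58 with rising length. Leukemic replicate 2 against 3 gave 0.06 to -0.03 over the same quartiles. The median leukemia log2 fold change ran from 0.11 in the shortest to -0.04 in the longest quartile with 6 libraries, and from -0.13 to 0.08 without leukemic replicate 1. The part of transcript length in single results was not tested.

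**Figure D5:**
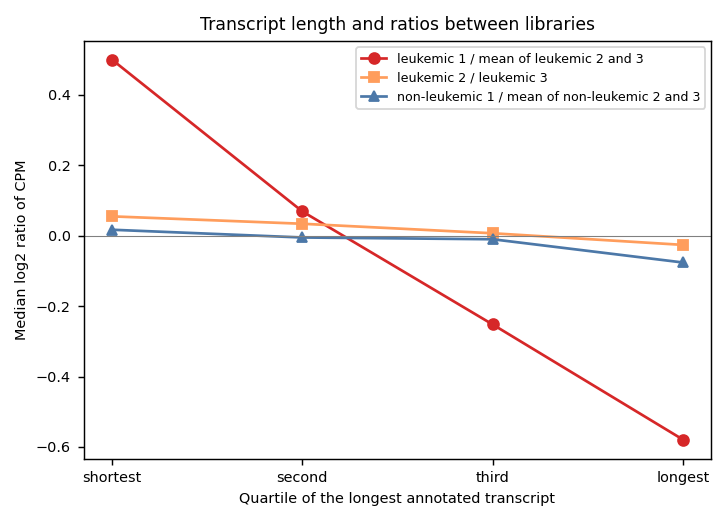
Median log2 ratio of CPM between libraries of the same group (vertical axis) over quartiles of the genes tested by the length of their longest transcript (horizontal axis). The line for leukemic replicate 1 against the other leukemic libraries falls from 0.5 to -0.58, and the other 2 lines stay between -0.08 and 0.06.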

How the data were processed

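Counts of 6 female macrophage libraries were analysed, and the other 6 libraries of the series were not used. The deposited unit is raw counts per gene, made by the authors. The submitters' processing notes name the build GRCm39, the aligner STAR 2.7.9a, read trimming by fastp 0.23.1 after bcl2fastq 2.19.1, counting with featureCounts of Subread 2.0.1, and R 4.0.2 with DESeq2 1.28.1. Annotation and strand setting are not given in the sources used here. Reads of genes overlapping on opposite strands may not be told apart, since the kit named in the labels' protocols does not mark strand. Depth ran from 20031283 to 30014855 counts, and 3 counts, the limit a count of 0 allows, were 0.106 to 0.151 CPM.

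Genes with 10 or more counts in 3 or more libraries were tested with the quasi-likelihood test of edgeR 4.0.16 (TMM, robust, R 4.3.3), with Benjamini-Hochberg adjustment over all genes tested and a threshold of 0.05, with and without leukemic replicate 1. SE is the log2 fold change divided by the root of F. Alternatives were DESeq2 1.42.0, limma-voom (limma 3.58.1), other scaling and filters, a 1.5-fold minimum, a replicate block and each library left out. The scripts were tested on simulated data in which no library was set apart from the others. No call had the wrong sign there, but the share of false calls was above the threshold in each fit. It was larger without leukemic replicate 1 than with it and largest with DESeq2. The sources do not say that replicate numbers mark pairs, and the reported fit used no pairing. In the check made, deviations of same-numbered libraries correlated weakly (0.0422 to 0.101), yet each library correlated best with its own number. Replicates were compared by chi-square over genes, and no pair agreed within sampling noise (at least 31.1 per degree of freedom).

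The libraries, the 44 lists and the naming rule were chosen with earlier results of these data known. Named are the 15 largest changes each way among genes past the threshold in both fits, with no overlap between groups and mean log2 CPM from 4 up (254 higher and 461 lower genes met this), leaving out predicted genes and receptor segments, then the 4 members of each list with the lowest p, a short set of gate, sex and lactate genes, and the 5 genes lost and 5 gained without leukemic replicate 1. Promoters are RefSeq's for GRCm38.p6, matched by symbol, and 10560 of the genes tested had one. Other members named from short counts of calls were chosen after their values were seen. Some genes that meet the naming rule are not reported here.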

Additional observations from a re-analysis of the deposited data

How the results depend on the processing

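With 6 libraries 933 genes passed (363 higher, 570 lower). DESeq2 called 2028 (947 and 1081), a minimum change of 1.5-fold left 380 (92 and 288), and the fit with the replicate number as a block left 498 (153 and 345). Leaving out 1 library gave from 200 to 2189 genes, from 20 to 903 higher and from 180 to 1286 lower. In an alternative chosen after seeing the data, without leukemic replicate 1 and with 10 or more counts in 2 of the 5 libraries, 2137 passed (897 and 1240). The counts stayed within 1.5 times under DESeq2's size factors in edgeR (933), limma-voom (901), no filter on low counts (904), filterByExpr (942) and a filter of 10 counts in all 6 libraries (1009). The share of higher calls was 38.9% in the reported fit, 46.7% with DESeq2, 24.2% with the 1.5-fold minimum and 10% to 13.4% without any 1 non-leukemic library. Of 129 named genes called, 0 changed direction under any alternative, 45 were lost with the block, 63 with the 1.5-fold minimum, 18 with limma-voom, and 84 to 93 without any 1 non-leukemic library. Most were named for a low p, or for passing with the same sign with and without leukemic replicate 1. A change of direction was therefore unlikely in advance, and its absence shows little. Replicate numbers were shared by both groups. Deviations of same-numbered libraries correlated at 0.0422, 0.0452 and 0.101, and each library correlated best with its own number, a hint from the data and not from the design. With 3 libraries a group, the test has 4 residual degrees of freedom, or 3 with 1 left out. The cause of the lower and higher counts in those fits was not tested. Depth limits genes under 0.106 to 0.151 CPM, the level of 3 counts, and Hcar1 was not detectable at this depth.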

Other observations

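Several lists of macrophage function had no member past the threshold with 6 libraries in edgeR. Counts of list members in this section stand beside those over all 14452 genes. At an unadjusted p under 0.05 that was 3079 genes in either direction. DESeq2 called 2028 (947 higher and 1081 lower) and limma-voom 901 (288 and 613). Whether a list here exceeds these shares was not tested. Of 14 Toll-like receptor and adaptor genes, 1 was higher at an unadjusted p under 0.05, Tlr3 (log2 fold change 1.23, SE 0.43, adjusted p = 0.154), and 0 passed with DESeq2, with limma-voom or in any omission of 1 library. Of 9 Fc receptors, 1 was higher and 1 lower at an unadjusted p under 0.05: Fcgr3, an activating receptor (0.76, adjusted p = 0.0639), and Fcgrt, the neonatal Fc receptor (-1.11, adjusted p = 0.101). Both passed with DESeq2 and without leukemic replicate 1 (adjusted p = 0.0358 and 0.0185), and limma-voom called 0. Of 12 genes of MHC class II presentation, 2 were higher at an unadjusted p under 0.05, DESeq2 called 1 and limma-voom 0. H2-Oa, a chain of the peptide-loading modulator DO that B cells express, was at 17.3, 19.3 and 14.6 CPM without leukemia and at 50.04, 32.0 and 29.5 CPM with it (1.12, SE 0.27, adjusted p = 0.0523, and 0.0287 without leukemic replicate 1). Ciita, the activator of class II genes, overlapped between the groups (adjusted p = 0.335).

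Cholesterol and fatty acid synthesis had 5 of 18 genes higher and 0 lower at an unadjusted p under 0.05, 3 with DESeq2 and 0 with limma-voom. Without leukemic replicate 1, 4 passed in edgeR: Cyp51 and Hmgcs1, enzymes of cholesterol synthesis (0.66 and 0.60, adjusted p = 0.0273 and 0.0472), and Fasn and Scd2, of fatty acid synthesis (0.94 and 0.82, adjusted p = 0.0103 and 0.0312). Of 14 complement genes, 1 was higher and 1 lower at an unadjusted p under 0.05, DESeq2 called 1 higher and limma-voom 0, and 3 were lower without leukemic replicate 1. No B or plasma cell gene of 12 passed at an unadjusted p under 0.05 or with DESeq2 or limma-voom, and levels differed widely within groups. Without leukemic replicate 2, 2 of the 12 were higher in edgeR, Ighm among them (adjusted p = 0.0464). Ighm, the heavy chain of IgM, was at 6391, 5436 and 12789 CPM without leukemia and at 39286, 3024 and 27808 CPM with it, and Jchain, which joins IgM units, at 1153, 937 and 2225 CPM against 10936, 763 and 4050 CPM. Leukemic replicates 1 and 3 were the highest for both genes and leukemic replicate 2 the lowest.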
